A study of Mus musculus with 6 samples.

Results

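Unnamed gene models are transcripts that carry only a provisional symbol, Gm followed by a number or a clone name ending in Rik. Among 15559 such rows in a read count table of 40824 gene rows from maternal mouse hepatocyte nuclei, 14 stood apart at gestation stage G14.5: 11 were higher and 3 lower than at day 0 of gestation (G0) and at day 7 after birth in lactating mothers (P7L). The reads of all nuclei in a library were added up and scaled to a library total of 1000000 (CPM). A gene model was a member when both G14.5 libraries lay at least 3 times above every G0 and P7L library and reached 5 CPM, or when every G0 and P7L library lay at least 3 times above both G14.5 libraries and reached 5 CPM. The members were thus chosen by their levels at G14.5 against the other stages, and those levels are described here without a test.

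The nuclei came from livers of wild-type female C57BL/6J mice mated at about 8 weeks of age, and were profiled with Smart-seq3xpress, a plate-based full-length RNA-seq method. The G0 group had 252 nuclei from liver tissue and 184 from perfused liver, the G14.5 group 224 and 301, and the P7L group 308 and 298. The preparation and the use of nuclei are taken from the titles and library names. The extraction protocol in the labels describes hepatocytes picked by hand from perfused, collagenase-digested livers for every sample, so that what separates the preparations is not certain. Each stage thus had n = 2 libraries, 1 per preparation, and the labels name no animal, so that any p-value measures the spread between 6 libraries only. Library totals ran from 226030591 to 379767336 reads, and median reads per nucleus from 731494 to 1191576. The 10 hepatocyte markers, among them Alb and Apob, summed to between 15505 and 18573 CPM in the 6 libraries. The summed markers of 9 other cell types each stayed at or below 44.2 CPM, and those of placental trophoblast at or below 0.137 CPM. The 6 cholangiocyte markers summed to 2.46 and 1.47 CPM at G14.5 and to between 4.78 and 7.84 CPM in the other libraries, and the part of this difference in the values below was not tested.

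Many gene models are long noncoding RNAs. Some start close to a protein-coding gene and run away from it, some overlap such a gene as antisense transcripts, and others lie alone between genes. Nuclear RNA-seq also reads unspliced and nucleus-retained transcripts, which many long noncoding RNAs are. Provisional symbols can stay in use for protein-coding genes that have since been named. On the mouse assembly GRCm38, 13 of the 14 members could be placed with the GENCODE M21 and RefSeq tables, 10 by their symbol and 3 as synonyms of a named gene. GENCODE gives 3 as protein coding, 5 as long intergenic noncoding RNA, 2 as antisense, 2 as processed transcripts and 1 as a long noncoding RNA from a bidirectional promoter. They lay on 10 chromosomes, with 3 on chromosome 2 and 2 on chromosome 12. Gm20621 was not matched and is known here by its symbol only.

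Of 518 gene models that reached 5 CPM in both G14.5 libraries, the 11 higher members made up 2.12%, beside 92 of 8143 rows with any other symbol (1.13%). Of 454 gene models that reached 5 CPM in every G0 and P7L library, the 3 lower members made up 0.661%, beside 65 of 7984 other rows (0.814%). The median separation, taken as the lowest library of the higher side over the highest library of the other side, was 3.53-fold for the higher members and 5.75-fold for the other rows that passed. For the lower members it was 3.51-fold, against 3.96-fold for the other rows that passed. Scaled by library totals, the median row moved by -0.09 (log2) at G14.5 against G0 and by -0.15 against P7L. With TMM library sizes, which bring that median near 0, all 11 higher members and 2 of the 3 lower members still passed, while 0610043K17Rik came to 2.75-fold. Leaving out 1 library only removes conditions from the rule, so that all 14 pass by construction. The numbers of higher and lower gene models became 21 and 7 without G14.5 liver tissue, 23 and 6 without G14.5 perfusion, and 12 and 6 without G0 perfusion.

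**Figure D1:**
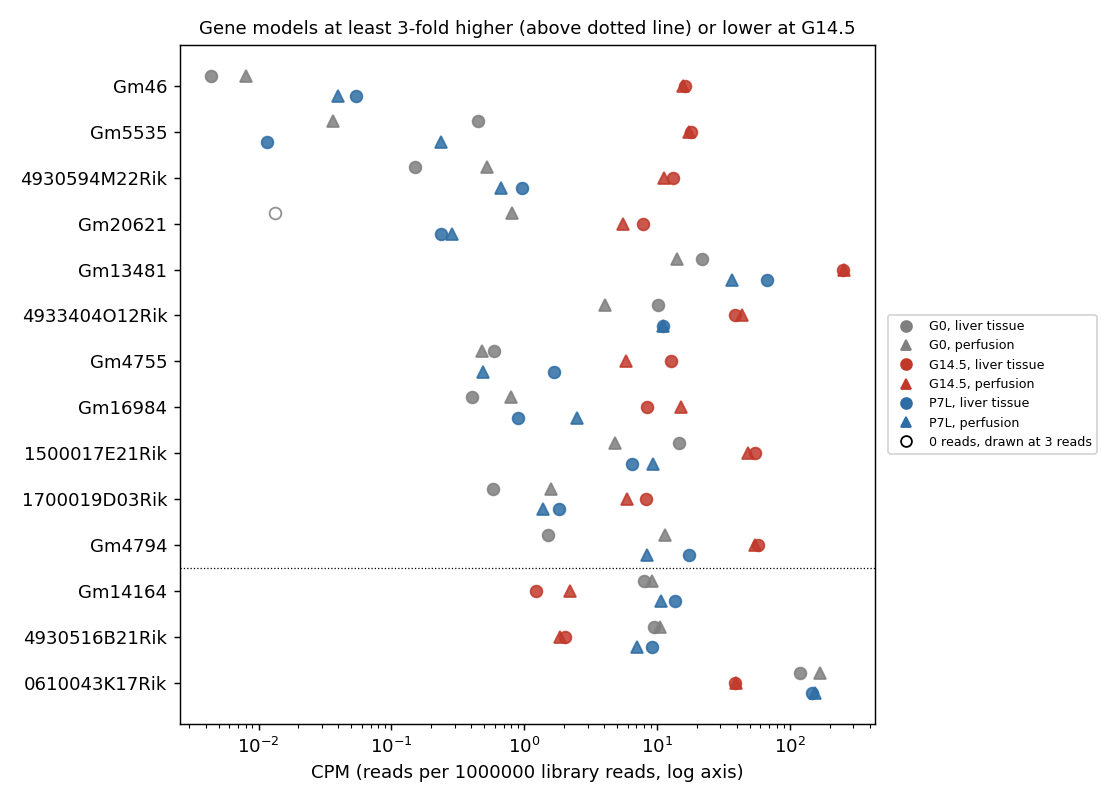
CPM (log axis) of the 14 members in the 6 libraries; circles are liver tissue libraries, triangles perfusion libraries, grey G0, red G14.5 and blue P7L, and the open circle is a library with 0 reads drawn at 3 reads. Above the dotted line the G14.5 points lie right of all others, most widely for Gm46 (290-fold), and below it they lie left of all others.

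Gm46 showed the widest separation. It is a synonym of Serpina16, a protein-coding gene of the serpin family of protease inhibitors and carrier proteins, on chr12:103668808-103676139, minus strand. Its reads numbered 1 and 2 in the G0 liver tissue and perfusion libraries, 4289 and 5975 at G14.5, then 14 and 13 at P7L. In CPM these were 0.00442 and 0.00806 at G0, 16.2 and 15.7 at G14.5, then 0.0542 and 0.0397 at P7L. G14.5 did not overlap the other stages, which the rule requires, and the lower G14.5 library was 290 times the highest other library. Serpin genes of this cluster are similar in sequence, so that reads may be shared between copies.

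Gm5535, a long intergenic noncoding RNA on chr2:144098815-144207990, minus strand, separated by 38.4-fold. It had 0.451 and 0.0363 CPM at G0, 17.9 and 17.3 CPM at G14.5, then 0.0116 and 0.238 CPM at P7L, with liver tissue given first here and in all later pairs of libraries. The low libraries were scattered, and 89.2% of the 102 reads in G0 liver tissue came from 1 nucleus. 4930594M22Rik, 11.8-fold, appears in GENCODE as separate loci under one symbol, chr14:122913030-122937469 and chr14:122952119-122956343, both on the plus strand. It had 0.150 and 0.524 CPM at G0, 13.3 and 11.3 CPM at G14.5, then 0.960 and 0.672 CPM at P7L. Gm20621, 6.79-fold, had 0 and 0.814 CPM at G0, 7.83 and 5.53 CPM at G14.5, then 0.236 and 0.287 CPM at P7L. All 202 of its reads in the G0 perfusion library came from 1 nucleus.

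Gm13481 was the most abundant of the higher members per length. It is a long intergenic noncoding RNA on chr2:48062548-48457245, minus strand, which spans 394698 bases with 1732 exonic bases. It had 21.8 and 14.1 CPM at G0, 253 and 254 CPM at G14.5, then 67.8 and 36.4 CPM at P7L. The P7L libraries lay between those of the other stages without overlap. On the authors' per-length scale (TPM-like values summing to about 100000 per nucleus), it averaged 45.1 and 43.6 at G14.5. On that scale Gm4794 followed with 21.1 and 18.1, 1500017E21Rik with 5.80 and 5.79, and Gm16984 with 3.19 and 4.49.

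The starts of some members are shown so that the sequences before transcripts with one stage pattern can be read side by side. RefSeq (GRCm38.p6) gives a promoter window, from 250 bases before the start to 50 bases after it, for 11 of the 14 members. The first window of each was searched on both strands for 5 elements: the STAT5 element TTCNNNGAA, the E-box CACGTG, the D-box TTANGTAA, the HNF4A element CAAAGTNCA and the nuclear receptor element AGGTCA. STAT5 carries the signal of the prolactin and growth hormone receptors, the E-box and D-box are bound by clock factors, and HNF4A is a master regulator of hepatocyte genes. The nuclear receptor element occurred in 3 of 11 members, Gm46, Gm5535 and Gm13481, beside 16.3% of all 32851 RefSeq windows. In these first windows the other elements were found in 0 of 11, beside 8.30% of all windows for the STAT5 element, 7.15% for the E-box, 2.32% for the D-box and 1.41% for the HNF4A element. The percentages over all windows include the later windows of genes with several starts, unlike the counts over members. The later windows of 1700019D03Rik, the only member with several RefSeq starts, were searched too, and its window 3 held 1 STAT5 element, TTCTGAGAA, beginning at position -189 relative to that start. A match is a run of letters and says nothing of binding. The windows of the 3 members with the nuclear receptor element, and of the lower member Gm14164 for comparison, are printed 5′ to 3′ on the strand of the gene, with that element (read here as its reverse complement) in capitals.
Gm46, chr12:103676713-103677012, minus strand: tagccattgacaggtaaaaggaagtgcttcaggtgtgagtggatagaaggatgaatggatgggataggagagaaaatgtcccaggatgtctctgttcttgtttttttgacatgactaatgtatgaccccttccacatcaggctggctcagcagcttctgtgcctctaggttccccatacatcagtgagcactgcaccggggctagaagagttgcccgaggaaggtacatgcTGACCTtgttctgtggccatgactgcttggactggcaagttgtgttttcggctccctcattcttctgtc
Gm5535, chr2:144189241-144189540, minus strand: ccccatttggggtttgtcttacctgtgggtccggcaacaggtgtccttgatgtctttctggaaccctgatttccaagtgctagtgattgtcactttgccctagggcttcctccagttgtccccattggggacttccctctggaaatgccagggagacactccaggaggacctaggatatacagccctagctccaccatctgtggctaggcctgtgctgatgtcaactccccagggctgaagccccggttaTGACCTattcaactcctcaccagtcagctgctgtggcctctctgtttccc
Gm13481, chr2:48457216-48457515, minus strand: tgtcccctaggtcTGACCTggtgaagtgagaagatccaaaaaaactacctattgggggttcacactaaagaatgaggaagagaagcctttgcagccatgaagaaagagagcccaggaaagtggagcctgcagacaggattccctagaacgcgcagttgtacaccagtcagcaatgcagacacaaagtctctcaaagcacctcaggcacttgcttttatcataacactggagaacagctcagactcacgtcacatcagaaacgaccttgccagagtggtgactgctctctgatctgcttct
Gm14164, chr2:152345419-152345718, plus strand: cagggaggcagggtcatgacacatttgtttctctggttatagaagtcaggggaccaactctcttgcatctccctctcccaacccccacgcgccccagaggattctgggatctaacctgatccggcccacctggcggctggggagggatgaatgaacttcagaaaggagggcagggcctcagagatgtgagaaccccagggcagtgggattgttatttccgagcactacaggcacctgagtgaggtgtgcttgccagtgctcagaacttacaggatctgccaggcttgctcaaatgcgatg
The element began at position -19 relative to the start in Gm46, at position 0 in Gm5535 and at position -237 in Gm13481. The RefSeq start of Gm46 lies upstream of the GENCODE gene, and that of Gm5535 inside the GENCODE gene, so that the windows depend on the annotation.

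The 6 other higher members separated by 3.11-fold to 3.53-fold. Gm4794 is a synonym of Sult3a2, a protein-coding gene of the sulfotransferases, enzymes that add sulfate to steroids, amines and xenobiotics, on chr10:33766424-33786704, minus strand. It had 1.504 and 11.6 CPM at G0, 58.0 and 54.4 CPM at G14.5, then 17.5 and 8.39 CPM at P7L. The G0 libraries differed widely from each other, and both G14.5 libraries lay above all others, which the rule requires. Its near copy Sult3a1 had 273 and 439 CPM at G0, 952 and 723 CPM at G14.5, then 380 and 287 CPM at P7L, and the counting may have split reads between the copies. 1700019D03Rik, whose RefSeq synonym smAKAP is the name of an anchor protein of protein kinase A, is protein coding on chr1:52922324-53020179, minus strand. It had 0.584 and 1.58 CPM at G0, 8.24 and 5.98 CPM at G14.5, then 1.82 and 1.38 CPM at P7L.

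The remaining 4 higher members are noncoding. 4933404O12Rik, a long intergenic RNA on chr5:136919146-136937112, plus strand, had 10.2 and 4.07 CPM at G0, 39.0 and 43.5 CPM at G14.5, then 11.02 and 11.06 CPM at P7L. 1500017E21Rik is a synonym of Hectd2os, the opposite-strand transcript of Hectd2, on chr19:36614052-36705641, minus strand. It had 14.6 and 4.83 CPM at G0, 54.8 and 48.3 CPM at G14.5, then 6.48 and 9.33 CPM at P7L. In both of these the 2 G14.5 libraries lay close together and the G0 libraries far apart. Gm4755, on chr12:8764901-8771181, minus strand, starts beside Sdc1 and had 0.597 and 0.479 CPM at G0, 12.7 and 5.81 CPM at G14.5, then 1.67 and 0.492 CPM at P7L. Gm16984, an antisense RNA on chr13:34963982-34990452, plus strand, had 0.407 and 0.794 CPM at G0, 8.48 and 15.1 CPM at G14.5, then 0.902 and 2.52 CPM at P7L. At G14.5 Gm4755 was higher in liver tissue and Gm16984 in perfusion, and by the rule neither overlapped the other stages.

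Of the 3 lower members, 0610043K17Rik was by far the most abundant. It is a long intergenic RNA on chr4:101353783-101399181, plus strand, with 119 and 170 CPM at G0, 38.4 and 39.2 CPM at G14.5, then 148 and 154 CPM at P7L. On the authors' per-length scale it averaged 57.1 and 76.9 at G0, 18.0 and 18.1 at G14.5, then 65.1 and 74.2 at P7L, above every other member at G0 and P7L. Gm14164, a processed transcript on chr2:152345669-152375324, plus strand, had 8.02 and 9.12 CPM at G0, 1.22 and 2.20 CPM at G14.5, then 13.7 and 10.6 CPM at P7L. One nucleus gave 70.7% of its reads in the G0 perfusion library. 4930516B21Rik, a long intergenic RNA on chr9:119440278-119444830, minus strand, had 9.50 and 10.6 CPM at G0, 2.02 and 1.86 CPM at G14.5, then 9.12 and 7.11 CPM at P7L. For all 3 the G14.5 libraries were the lowest of the 6, which the rule requires.

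The threshold of 3 cut through a continuous range. Just inside it on the higher side were Gm4794 (3.11-fold), 1700019D03Rik (3.29) and 1500017E21Rik (3.30), and just outside 5830473C10Rik (2.88), 5730420D15Rik (2.79) and Gm21973 (2.52). On the lower side 0610043K17Rik (3.04), 4930516B21Rik (3.51) and Gm14164 (3.65) were inside, and 1100001G20Rik (2.97), Gm13775 (2.79) and 2410131K14Rik (2.66) outside. Those outside included abundant transcripts. 5830473C10Rik had 238 and 232 CPM at G0, 687 and 740 CPM at G14.5, then 135 and 146 CPM at P7L, while Gm13775 had 271 and 342 CPM at G0, 97.1 and 95.4 CPM at G14.5, then 397 and 353 CPM at P7L.

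The floor of 5 CPM and single nuclei mattered for the thinly read members. When the nucleus with the most reads of a gene was left out of each library, an alternative chosen after seeing the data, 8 of the 11 higher and 2 of the 3 lower members still passed. Gm20621 then had 4.95 CPM in G14.5 liver tissue and 3.85 CPM in G14.5 perfusion. In G14.5 perfusion Gm4755 had 3.45 CPM and 1700019D03Rik 4.13 CPM, and Gm14164 had 2.69 CPM in G0 perfusion. These 4 fell below the floor, and all but Gm20621 also fell below the 3-fold ratio. For that ratio, Gm4755 had 1.41 CPM and 1700019D03Rik 1.46 CPM in P7L liver tissue, and Gm14164 had 1.47 CPM in G14.5 perfusion.

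The rule was also applied within each preparation, as a description of the same CPM values and not as a further test. The members pass within both by construction, and whether the libraries of a stage share an animal is not known. Of 25 gene models that passed as higher in the 3 perfusion libraries, 14 (56%) also passed in the 3 liver tissue libraries, where 4.98% of the gene models at the floor did so. Of 30 chosen in liver tissue, 14 (46.7%) passed in perfusion, against 4.41% of the gene models at the floor there. In the other direction 4 of 16 (25%) chosen in perfusion passed in liver tissue (2.18% of gene models at the floor), and 4 of 11 (36.4%) chosen in liver tissue passed in perfusion (3.17%). For rows with other symbols the shares were 65% (104 of 160) from perfusion to liver tissue and 53.9% (104 of 193) from liver tissue to perfusion among the higher ones, beside 2.26% and 1.89% of such rows at the floor. Among their lower ones the shares were 47.5% (76 of 160) and 49.4% (76 of 154), beside 1.86% and 1.94%, and thus above those of the lower gene models.

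The members were then followed over nuclei, each thinned at random to 250000 reads, for which 35 of the 1567 nuclei were too shallow. Intervals are exact Clopper-Pearson 95% intervals over the nuclei of 1 library and cover counting error only, since reads that carry no molecular identifier may copy one molecule. Gm46 had reads in 0 of 237 and 0 of 181 thinned nuclei at G0, with upper interval bounds of 1.54% and 2.02% of nuclei with a read at this depth; if 3 nuclei are taken as the limit that a count of 0 allows, the shares are up to 1.27% and 1.66%. At G14.5 its reads were in 45.1% (interval 38.5 to 51.9) and 42.7% (37.0 to 48.5) of nuclei, and at P7L in 0.340% and 0.676%. Gm5535 had reads in 0.844% and 0% of nuclei at G0, 31.7% (25.7 to 38.2) and 37.3% (31.8 to 43.1) at G14.5, then 0.340% and 1.35% at P7L. For both transcripts few nuclei outside G14.5 had any read.

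Gm13481 was spread more widely, with reads in 29.5% and 25.4% of nuclei at G0, 88.8% and 89.0% at G14.5, then 54.1% and 40.2% at P7L. Without thinning, its median in nuclei with reads was 3 and 4 reads at G0, 113.5 and 98 at G14.5, then 7 and 4.5 at P7L, so that both the share of nuclei and the reads per nucleus were higher at G14.5. 1500017E21Rik had reads in 21.9% and 14.4% of nuclei at G0, 73.7% and 71.7% at G14.5, then 23.5% and 25.3% at P7L. 4933404O12Rik had 17.7% and 13.3%, 63.4% and 68.3%, and 31.0% and 33.1% in the same order of stages. Gm4794 had reads in 3.38% and 16.0% of nuclei at G0, 46.4% and 50.0% at G14.5, then 31.0% and 27.0% at P7L.

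The other 5 higher members had reads in 15% to 32.7% of nuclei at G14.5. The highest of these was 4930594M22Rik in perfusion, and the lowest 1700019D03Rik in perfusion, whose interval (11.2 to 19.6) overlapped those of the perfusion libraries at G0 and P7L, at 9.39% (5.57 to 14.6) and 10.8% (7.51 to 14.9). In liver tissue its 19.2% (14.3 to 25.0) at G14.5 overlapped the P7L interval, at 11.2% (7.85 to 15.4), but not that of G0. Of the lower members, 0610043K17Rik had reads in 89.0% and 89.0% of nuclei at G0, 53.6% and 56.0% at G14.5, then 93.2% and 95.6% at P7L. Gm14164 had 20.3% and 9.94%, 4.46% and 8.00%, and 31.0% and 31.1%, and 4930516B21Rik 16.9% and 13.8%, 6.25% and 9.00%, and 29.6% and 28.7%, in the order G0, G14.5 and P7L. In perfusion, the intervals of both overlapped between G14.5 and G0.

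**Figure D2:**
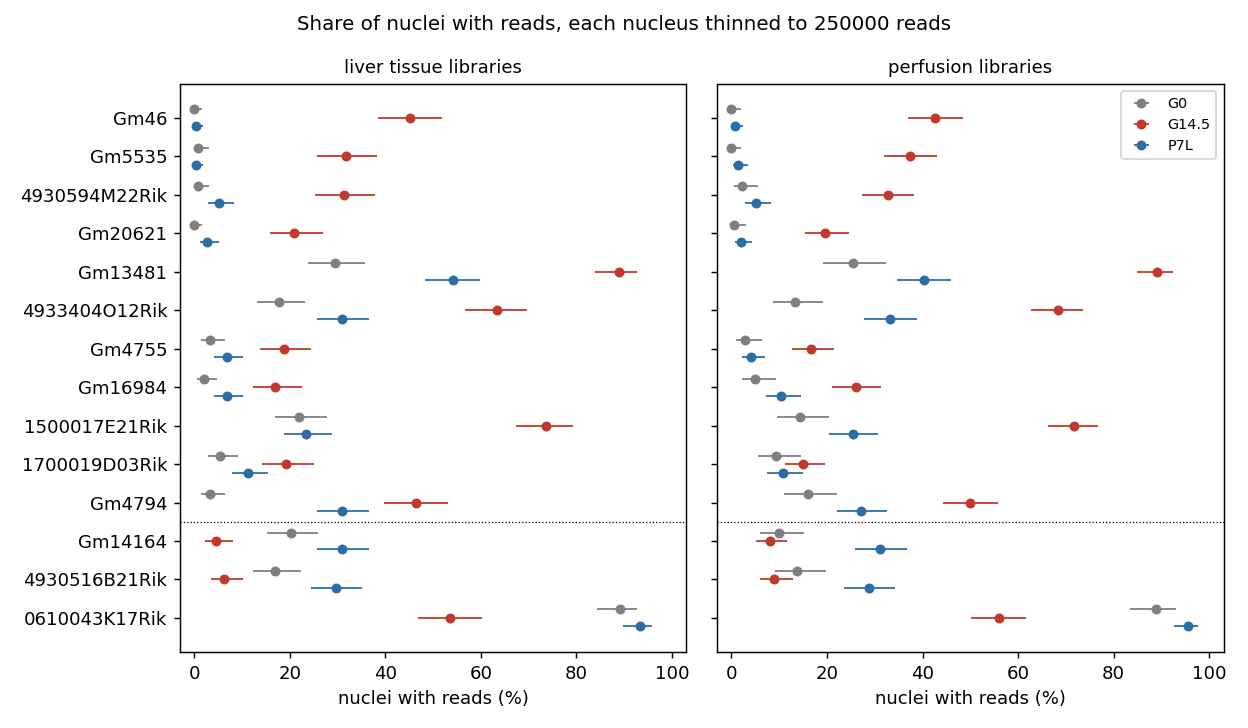
Share of nuclei with reads (%) for each member in the liver tissue libraries (left) and perfusion libraries (right), nuclei thinned to 250000 reads, with exact 95% intervals over nuclei; grey is G0, red G14.5 and blue P7L, and the dotted line separates higher from lower members. Gm13481 reached 88.8% and 89.0% of nuclei at G14.5, while 1700019D03Rik in perfusion overlapped the other stages.

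Nuclei at G14.5 carried reads of several higher members together. The median number of the 11 higher members with reads in a thinned nucleus came to 1 and 1 at G0, 4 and 5 at G14.5, then 2 and 1 at P7L. At least 3 of them had reads in 4.64% and 2.21% of nuclei at G0, 92.4% and 94.3% at G14.5, then 22.1% and 19.9% at P7L. At least 6 had reads in 28.6% and 27.3% of G14.5 nuclei and in 0% of nuclei of the other 4 libraries. No lower member had reads in 7.59% and 10.5% of nuclei at G0, 41.1% and 36.3% at G14.5, then 3.06% and 2.03% at P7L. These shares follow from the levels that chose the members.

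P7L against G0 sets the members in lactation beside those at the start of gestation. The choice did not compare these stages with each other, but it bounded the level of every G0 and P7L library. The G14.5 libraries also enter the spread behind each p-value, so the comparison is not independent of the choice. The edgeR quasi-likelihood F test, with stage and preparation as terms over all 6 libraries, called 1 of the 14 members, beside 438 of 15015 rows tested (2.92%) and 40 of 1870 gene models (2.14%). Gm46, Gm5535 and Gm20621 met the detection filter of the test only through the G14.5 libraries, where they were chosen as high. In the G0 and P7L libraries they had reads in at most 3.36% of nuclei before thinning. The counts and medians of members given here include them. The called member was Gm13481, with 67.8 and 36.4 CPM at P7L against 21.8 and 14.1 CPM at G0. Its log2 fold change was 1.43 ± 0.24 (approximate SE, derived from the F statistic) with an edgeR adjusted p = 0.0317. It was higher at P7L in both preparations, and over 13 alternative settings its fold change lay between 1.13 and 1.70 with adjusted p between 7.81e-06 and 0.167. It lost its call without the P7L liver tissue library (adjusted p = 0.167 by edgeR), without the P7L perfusion library (0.0799), without the G0 perfusion library (0.0605) and with filterByExpr as the only filter (0.0750). The count over all rows was 75 without the P7L liver tissue library, 37 without the P7L perfusion library and 669 without the G0 liver tissue library.

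Gm46 was fitted at 2.72 ± 0.67, but this rests on 14 and 13 reads at P7L and 1 and 2 reads at G0 (edgeR adjusted p = 0.0813). Gm16984 had 0.902 and 2.52 CPM at P7L against 0.407 and 0.794 CPM at G0, a log2 fold change of 1.34 ± 0.44 (edgeR adjusted p = 0.148). These and Gm13481 were the 3 members with an unadjusted p under 0.05. DESeq2 called all 3, but Gm46 met the filter only through the G14.5 libraries, and its call rests on few nuclei. At P7L, Gm46 had reads in 0.974% and 0.671% of nuclei before thinning. In each of these libraries 1 nucleus gave most of the reads, 57.1% in liver tissue and 92.3% in perfusion. The fitted values of the other members ran from -0.99 ± 1.60 for Gm5535 to 1.30 ± 0.65 for 4930594M22Rik. The median log2 fold change was 0.68 over the 11 higher members and 0.00 over the 3 lower members, beside 0.19 over the gene models and 0.01 over all rows tested. With n = 2 libraries per stage, an adjusted p above 0.05 does not show that a member was back at its G0 level, as the SE of 1.60 for Gm5535 shows.

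By share of nuclei, 13 of the 14 members had reads in more nuclei at P7L than at G0 in both preparations, where 75.0% of all rows tested and 70.7% of the gene models did so. Thinned nuclei had reads of more rows at P7L, with medians of 6710 and 6746 rows per nucleus, than at G0, with 5650 and 5386, and the part of this in the members' shares was not tested. The exception was Gm5535. Among the lower members, Gm14164 had reads in 31.0% (25.7 to 36.6) and 31.1% (25.9 to 36.7) of nuclei at P7L, against 20.3% (15.3 to 25.9) and 9.94% (6.00 to 15.3) at G0. 4930516B21Rik had 29.6% (24.4 to 35.2) and 28.7% (23.6 to 34.2) at P7L, against 16.9% (12.3 to 22.3) and 13.8% (9.14 to 19.7) at G0, while its CPM were lower at P7L in both preparations.

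**Figure D3:**
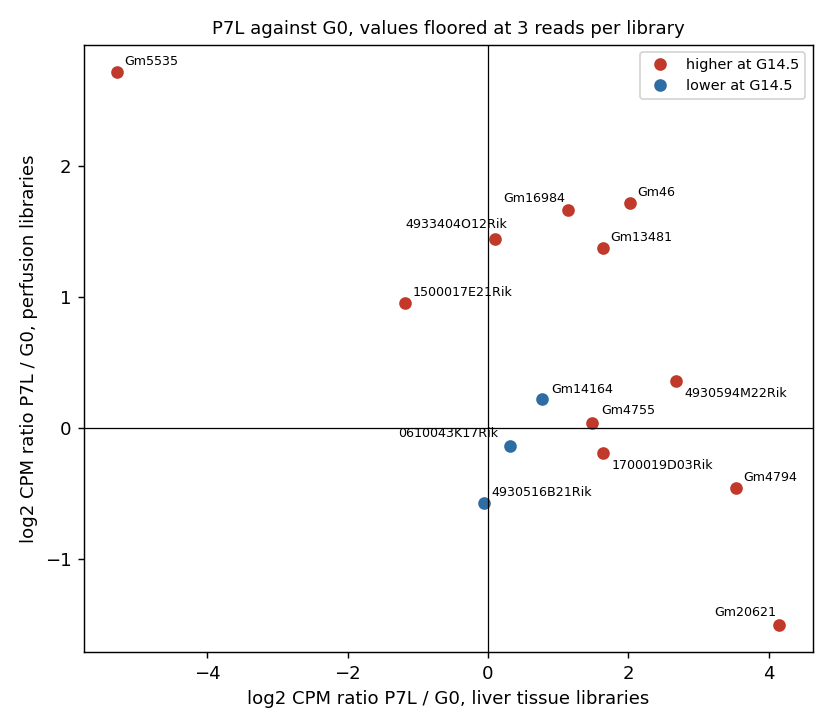
Log2 CPM ratio of P7L over G0 in the liver tissue libraries (x axis) and the perfusion libraries (y axis), values set to at least 3 reads per library; red points are members higher at G14.5 and blue points members lower at G14.5. Gm13481 is positive on both axes, while Gm5535 (-5.28 and 2.72) and Gm20621 (4.15 and -1.50) change sign between the preparations.

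Perfusion was compared with liver tissue in the same fit. edgeR called 0 of 14 members and 0 of 15015 rows (0.0%), with 3 members and 707 rows at an unadjusted p under 0.05. DESeq2 called 85 rows and 0 members. The largest values among those members were 1.12 ± 0.36 for Gm16984, higher in perfusion at every stage, and -1.04 ± 0.44 for Gm4755, lower in perfusion at every stage, with an edgeR adjusted p = 0.971 for each.

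Named genes beside the members were read from the annotation, counting every named row that overlaps a member and the nearest on each side within 50 kb. Of the 10 higher members with coordinates, 8 had such a neighbour and 1 had a neighbour that passed the same rule in the same direction, beside 4 of 509 gene models at the floor (0.786%). Of the 3 lower members, all had a neighbour and 1 had one that passed, beside 6 of 446 gene models at the floor (1.35%). The 2 members were Gm46 and 0610043K17Rik.

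Gm46 lies between other serpin genes on the same strand that were also higher at G14.5. Serpina6, which encodes corticosteroid-binding globulin, the plasma carrier of glucocorticoids, lies 11596 bases away on chr12:103646630-103657212. It had 121 and 120 CPM at G0, 3634 and 3294 CPM at G14.5, then 112 and 119 CPM at P7L, a separation of 27.2-fold. Serpina1f lies 11905 bases away on the other side, on chr12:103688044-103695529, and had 0 and 0 CPM at G0, 13.4 and 8.09 CPM at G14.5, then 0.217 and 0.00306 CPM at P7L (37.3-fold). Serpina6 had reads in 100% of G14.5 nuclei in both preparations and in 91.3% and 92.9% of G0 nuclei before thinning, whereas Gm46 had reads in 54.5% and 52.2% of G14.5 nuclei and Serpina1f in 40.2% and 30.9%. At P7L against G0, Serpina6 had a log2 fold change of -0.15 ± 0.11 (edgeR adjusted p = 0.473).

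0610043K17Rik lies 20096 bases from Ak4 on the same strand. Ak4, a mitochondrial adenylate kinase on chr4:101419277-101466995, had 66.2 and 73.1 CPM at G0, 6.94 and 7.99 CPM at G14.5, then 125 and 164 CPM at P7L, a separation of 8.28-fold. At P7L against G0, Ak4 rose by a log2 fold change of 0.96 ± 0.18 (edgeR adjusted p = 0.0391), while 0610043K17Rik had -0.00 ± 0.17 (adjusted p = 0.999). The neighbours thus shared the low level at G14.5, and the test called a difference between P7L and G0 for Ak4 and not for 0610043K17Rik; whether these changes differ from each other was not tested. Mir101a, on the other side of 0610043K17Rik, had 0 reads.

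Several members overlap a named gene on the opposite strand, and the sources used here do not state whether the counting used strand, so that reads of the pair cannot be told apart where exons coincide. 1500017E21Rik shares 46.1% of its exonic bases with Hectd2, a ubiquitin ligase gene, which had 27.1 and 23.9 CPM at G0, 75.0 and 67.6 CPM at G14.5, then 19.9 and 24.9 CPM at P7L (2.49-fold). 4930594M22Rik shares 32.6% with Tmtc4, which had 14.52 and 15.5 CPM at G0, 73.8 and 45.3 CPM at G14.5, then 18.0 and 15.5 CPM at P7L (2.52-fold). It also shares 2.74% with Ggact, which breaks down protein crosslinks and had 59.97 and 46.3 CPM at G0, 160 and 155 CPM at G14.5, then 46.9 and 39.2 CPM at P7L (2.58-fold). In these pairs the gene model and its overlapping gene were both highest in the G14.5 libraries. Gm16984 shares 18.6% of its exonic bases with Eci2, an enzyme of unsaturated fatty acid oxidation, which went the other way with 318 and 256 CPM at G0, 215 and 199 CPM at G14.5, then 249 and 239 CPM at P7L. Gm14164 shares 12.1% with Nrsn2, which had 0 reads in all libraries.

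Other members lie next to a gene that differed less. Gm4755 lies 142 bases from Sdc1, the gene of the heparan sulfate proteoglycan syndecan, in opposite orientation. Sdc1 had 42.9 and 44.5 CPM at G0, 96.3 and 76.2 CPM at G14.5, then 35.5 and 41.5 CPM at P7L (1.71-fold). 4930516B21Rik lies 113 bases from Exog, a mitochondrial nuclease gene whose levels overlapped between the stages, and 5283 bases from Acvr2b, an activin receptor. Acvr2b had 27.6 and 35.5 CPM at G0, 13.4 and 14.6 CPM at G14.5, then 55.9 and 50.2 CPM at P7L (1.90-fold). Trib3, a stress-induced pseudokinase 1637 bases from Gm14164, had 6.92 and 16.2 CPM at G0, 4.07 and 1.75 CPM at G14.5, then 7.38 and 17.2 CPM at P7L (1.70-fold).

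Still others stood beside genes that mostly did not share their pattern. Hibch, a valine catabolism enzyme 1338 bases from 1700019D03Rik, had 112 and 121 CPM at G0, 108 and 88.5 CPM at G14.5, then 162 and 161 CPM at P7L. Fis1, a mitochondrial fission gene 16163 bases from 4933404O12Rik, had 67.4 and 58.7 CPM at G0, 31.6 and 42.5 CPM at G14.5, then 64.8 and 75.6 CPM at P7L. Snx5, a sorting nexin 42133 bases from Gm5535, had 44.1 and 62.8 CPM at G0, 54.4 and 50.5 CPM at G14.5, then 41.9 and 37.6 CPM at P7L. Hibch and Fis1 had their lowest libraries at G14.5, where their gene models were highest, and the stages overlapped for Snx5. They also overlapped for Pum2 beside Gm4755 and for Ppp1r3c, which targets a phosphatase to glycogen, beside 1500017E21Rik. Eci3, a thinly read relative of Eci2 that lies 172 bases from Gm16984, had 0.358 and 0.149 CPM at G0, 4.82 and 3.02 CPM at G14.5, then 1.34 and 1.41 CPM at P7L (2.13-fold).

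Gm13481 and Gm4794 had no named row within 50 kb. The nearest to Gm13481 were Acvr2a, an activin receptor 356864 bases away with 161 and 168 CPM at G0, 145 and 127 CPM at G14.5, then 138 and 144 CPM at P7L, and Zeb2, a repressor 2945153 bases away. Neither passed the rule. The nearest to Gm4794 was Sult3a1, 71017 bases away on the opposite strand. Counting all neighbours that reached 5 CPM on the relevant side, 7 of 13 beside higher members had both G14.5 libraries above every other library, where 13.9% of all named rows at the floor did. Beside lower members 3 of 3 had both G14.5 libraries below every other library, where 31.7% did. Of the 7, Hectd2, Tmtc4 and Ggact overlap their member, Tmtc4, Ggact and Pcca stand beside one member and Serpina6 and Serpina1f beside another, so that they are not independent.

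**Figure D4:**
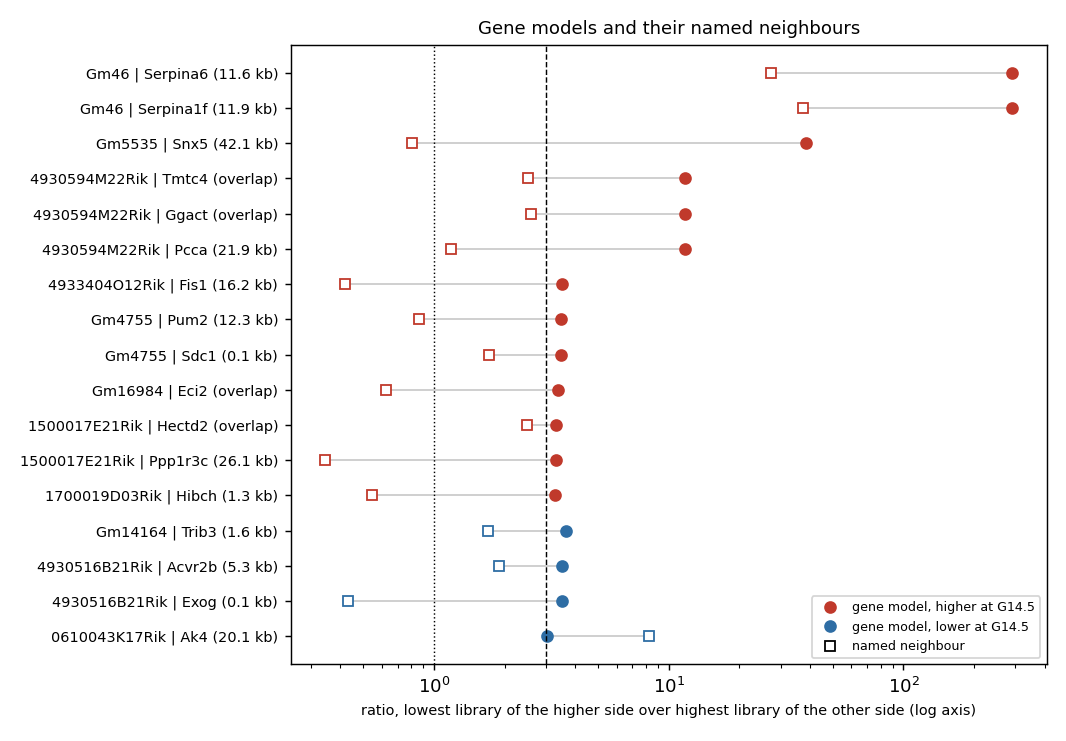
Separation of G14.5 from the other stages (lowest library of the higher side over highest library of the other side, log axis) for each member (filled circle) and its named neighbours with at least 5 CPM in some library (open square), joined by a grey line; red marks members higher and blue members lower at G14.5. Right of the dashed line at 3 lie the neighbours Serpina6 (27.2-fold), Serpina1f (37.3-fold) and Ak4 (8.28-fold), and left of the dotted line at 1 the libraries overlap or run the other way.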

How the data were processed

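Per the submitters' processing notes, the tools were featureCounts 1.5.3, HISAT2 2.1.0 and Trimmomatic 0.39, and the build was GRCm38; the annotation, the strand setting and the removal of nuclei are not given in the sources used here. The deposited table holds raw read counts, not molecules, per gene row and nucleus, and its 92 ERCC rows hold 0 reads. A second table holds the authors' TPM values, scaled to about 100000 per nucleus in place of 1000000, used here for levels per length and for 1 alternative. The 1567 nuclei were all kept, without a doublet call, and no 2 had identical counts. Library totals are given in the report.

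Counts were summed per library. CPM for the rule use plain totals. Rows that passed filterByExpr by stage and had reads in at least 5% of nuclei in at least 2 libraries (15015) were fitted with edgeR 4.0.16 (R 4.3.3), quasi-likelihood, TMM, stage and preparation, which left 2 residual degrees of freedom. A call is a two-sided Benjamini-Hochberg adjusted p under 0.05. The SE beside a log2 fold change is its absolute value divided by the square root of F. It is an approximation, least sure for fold changes near 0. The fit was tested on simulated data. The labels' titles name the preparation and give no replicate number. The liver tissue library is called replicate 1 of its stage here and the perfusion library replicate 2, so the preparation term is the replicate block.

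Names came from GENCODE M21 and RefSeq (GRCm38.p6), which placed 37447 of 40824 rows. Named genes are all members, the 3 gene models just outside each threshold, the neighbours of members, and members called by a test. Neighbours that did not pass the rule, and the near copy Sult3a1, were named after their values were seen. Members and lists were chosen with earlier results of these data known. Alternatives were other scalings, filters, thresholds and distances, thinning, DESeq2 1.42.0, the authors' values and leaving out libraries.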

Additional observations from a re-analysis of the deposited data

Results flagged for a closer look

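For 6 members the log2 ratio of P7L over G0 had opposite signs in the liver tissue and the perfusion libraries. Each value compares 1 library with 1 library, with levels set to at least 3 reads, and the difference between the preparations was not tested. Gm5535 had -5.28 in liver tissue and 2.72 in perfusion, from 3 reads at P7L against 102 at G0 in liver tissue and 78 reads at P7L against 9 at G0 in perfusion. Gm20621 had at least 4.15 in liver tissue, where G0 had 0 reads, and -1.50 in perfusion, where all 202 G0 reads came from 1 nucleus. Gm4794 had 3.54 in liver tissue and -0.46 in perfusion, and 1700019D03Rik had 1.64 and -0.19. 1500017E21Rik had -1.18 in liver tissue, where 1 nucleus gave 37.2% of the G0 reads, and 0.95 in perfusion. For the abundant 0610043K17Rik the values were small, 0.31 in liver tissue and -0.14 in perfusion.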

How the results depend on the processing

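The number of higher and lower gene models followed the thresholds: 18 and 10 at 2-fold, 4 and 0 at 5-fold, 22 and 12 at a floor of 1 CPM, 7 and 1 at 10 CPM, and 107 and 75 with no floor. On 1 preparation the numbers were 30 and 11 in liver tissue and 25 and 16 in perfusion, and leaving out 1 library gave 11 to 23 higher and 3 to 7 lower, with 23 and 6 without G14.5 perfusion, 21 and 7 without G14.5 liver tissue and 6 lower without G0 perfusion. These wider sets are made by requiring fewer libraries. The authors' values gave 25 higher and 4 lower, TMM sizes 15 and 2, and RLE sizes 16 and 2, with 0610043K17Rik lost under both scalings. Thinning and the authors' values lost 1700019D03Rik and Gm14164, and equal weight per nucleus lost Gm14164; the cause was not tested. Members called between P7L and G0 numbered 0 with filterByExpr alone, 3 with DESeq2 and 0 to 2 when 1 library was left out, among 92, 1901 and 37 to 669 rows called; with no filter but 1 read, 227 rows were called. Without G0 liver tissue the rows called were 669, without P7L liver tissue 75 and without P7L perfusion 37. The median log2 fold change of the members ran from 0.32 to 1.21. With no replicate block, the preparation term left out, 1 member and 578 rows were called, and edgeR called 0 rows between the preparations, against 85 with DESeq2. With all reads, the median share of G14.5 nuclei with reads of a higher member was 39.3% in liver tissue and 48.2% in perfusion, against 31.7% and 37.3% after thinning. With neighbours limited to overlaps, or to 10 kb, 0 members had one that passed, in place of 2. Depth limits Gm46, Gm5535 and Gm20621 most, with 0 to 202 reads in a G0 or P7L library.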
